A study of Mus musculus with 12 samples.

Results

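Nuclear RNA was compared in the mouse neural progenitor line C17.2 between 2 h and 1 h after a switch to neural differentiation medium. The comparison takes 4 of the series' 12 libraries, 2 from nuclei at each time, and asks which RNAs changed in nuclei between the first and the second hour. Its members are the genes of the deposited gene table with a value above the library floor, the value given to a gene without a read, in at least 2 of the 12 libraries. Of 35321 genes, 21079 met this rule. Among them, 1156 were above the floor in exactly 2 libraries, while 2127 genes above it in exactly 1 library and 12115 genes above it in none were left out.

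The series holds nuclear and mitochondrial preparations at 0, 1 and 2 h, with 2 libraries of each, which the labels call biological replicates. The labels give the line's strain as CD1 x C57BL/6 and name no genetic change, so all groups share 1 line. Cells at 0 h stood in DMEM/F12 with 10% fetal bovine serum. Cells at 1 and 2 h stood in Knockout DMEM with GlutaMAX and N2 supplement, in whose stated recipe no serum appears. Every cell of the present comparison had therefore been through the same medium change, and the libraries include none from a culture kept in serum medium at 1 or 2 h. Effects of time in the new medium, of lost serum and of differentiation cannot be told apart. In bulk RNA, fewer cells that hold an RNA and less of that RNA per cell cannot be told apart either.

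Growth factors in serum act through receptor kinases and the RAS-ERK cascade, which switches on immediate early genes within minutes. Most immediate early genes encode transcription factors with short-lived RNAs, and the cascade also induces its own inhibitors, the dual-specificity phosphatases and Sprouty proteins. The integrated stress response is a second fast programme. Kinases that sense missing amino acids, unfolded proteins or other stress phosphorylate the translation factor eIF2α, which favours translation of ATF4, and ATF4 with C/EBP partners and CHOP then induces genes for amino acid uptake, amino acid synthesis and tRNA charging. RNA in a nuclear preparation is rich in unspliced and freshly made transcripts, so its level follows transcription more closely than that of whole cells does.

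The nuclear libraries of 1 h held 4566444 and 4575696 reads inside genes and those of 2 h held 5503573 and 5913678, which was 13.9% to 15.5% of each library total. Levels are given in RPM, reads per 1000000 reads of the library total, after quantile normalization between libraries, and changes are log2 fold changes of 2 h over 1 h with the standard error of the limma model (n = 2 libraries a time). The p-values measure only the spread between libraries of the same group, estimated over all 12 libraries of the 6 groups. Nuclei 1 h replicate 1 stood apart. Its mean log2 RPM over Rps27, Rpl17, Rpl23a and Gapdh, genes with many processed copies in the genome, was 0.43, against 5.87 in replicate 2 of that time and 6.11 and 5.98 at 2 h. Of the 13280 genes with at least 10 reads a library on average, 472 were lower in this library than in its partner by over 1 log2 unit, and 0 of these passed the test below, while 327 were higher in it by as much. For comparison, the libraries of 2 h were over 1 log2 unit apart for 355. Both libraries of 2 h were on the side of replicate 2, so counts are given with and without nuclei 1 h replicate 1.

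The labelled cell type was checked against marker genes. Of 18 neural progenitor markers, 14 were tested, and their summed level was 616 to 677 RPM in the 4 nuclear libraries. The intermediate filament genes Nes and Vim held 141 to 161 RPM and 367 to 398 RPM there, and Sox2, a progenitor transcription factor, held 2.58 to 4.55 RPM. Sox1, Sox3, Prom1 and Hes5 had 0 reads in all 4 nuclear libraries, and Pax6 had 0 or 1. Of the 14, 1 fell between 1 and 2 h (Hes1, described below) and 0 rose. Neuron markers summed to 17.4 to 25.3 RPM with Dcx, Rbfox3, Syt1, Stmn2, Gad1, Gap43, Neurod1 and Neurog2 at 0 reads. Fibroblast and mesenchymal markers summed to 2143 to 2164 RPM, most of it the collagen gene Col1a1, with Lum and Prrx1 at 0 reads. Astrocyte markers summed to 49.8 to 58.7 RPM with Aqp4 and Gjb6 at 0 reads, oligodendrocyte lineage markers to 70.1 to 73.3 RPM with Olig1 at 0, microglial markers to 1.32 to 2.16 RPM with Itgam and Ptprc at 0, and endothelial markers to 7.31 to 9.14 RPM. In all 6 of these lists of other cell types, 0 of the tested members passed the test between 1 and 2 h in either direction.

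Between 1 and 2 h, 241 genes rose in nuclei (1.14% of 21079) and 266 genes fell (1.26%), by limma with Benjamini-Hochberg adjustment over all tested genes. Of the 13280 genes with at least 10 reads a library on average, 210 rose and 248 fell. Changes were mostly moderate: 39 of these rises and 28 of these falls were over 2-fold, and the medians were 0.64 and -0.53 on the log2 scale. On the deposited scale, without quantile normalization, the median log2 fold change of the 13280 genes of that depth was 0.13, and 445 genes rose (2.11%) against 91 that fell (0.432%). All 241 rises and all 266 falls had the same sign on that scale, where 231 and 84 of them passed. The shares of 1.14% and 1.26% are those to set beside the counts of list members below. Lists were chosen with earlier results of these data known, and no such count was tested against these shares.

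Single libraries carried part of these counts. Without nuclei 1 h replicate 1, 140 genes rose and 137 fell, and without nuclei 1 h replicate 2 the counts were 145 and 213. Without nuclei 2 h replicate 1 they were 94 and 77, and without nuclei 2 h replicate 2 they were 110 and 90. With the 4 libraries fitted alone, 0 genes passed by limma and 2579 had an unadjusted p under 0.05, so the calls rest on the spread shared by all 12 libraries. Both libraries of 2 h lay above both of 1 h for 19.5% of the tested genes and below both for 20.9%.

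**Figure D1:**
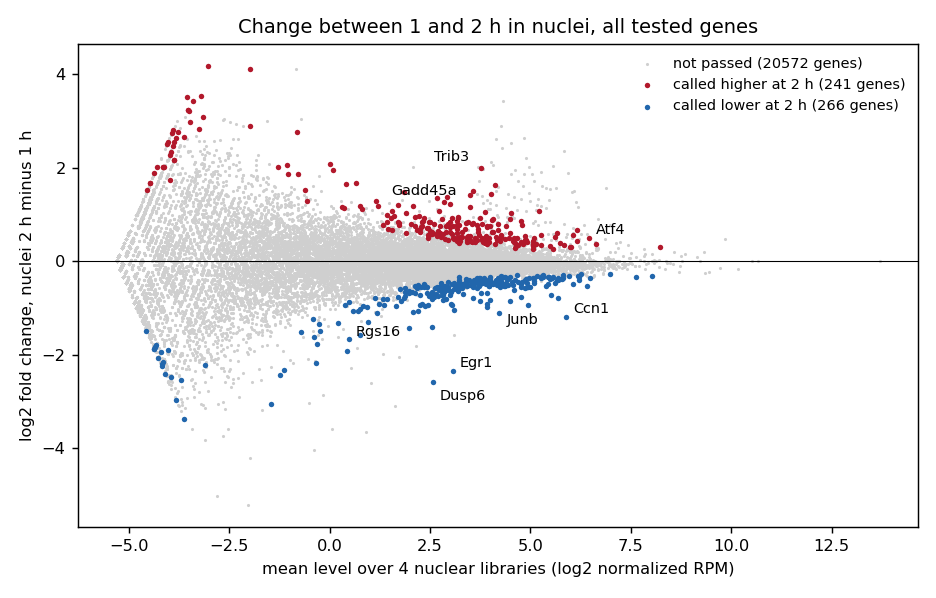
Log2 fold change of nuclei at 2 h over 1 h against the mean level in the 4 nuclear libraries (log2 normalized RPM), 1 point per tested gene, with the 241 genes called higher in red and the 266 called lower in blue. Egr1, at -2.35, and Dusp6, at -2.58, lie far below 0, and genes that did not pass are grey.

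Immediate early transcription factors were among the genes that fell. Of 37 tested members, 10 fell, 0 rose and 27 did not pass, with a median of -0.30 against 0.00 over all tested genes. On the deposited scale 8 fell and 1 rose, and without nuclei 1 h replicate 1 there were 5 falls. Both libraries of 2 h lay below both of 1 h for 21 of the 37 members, against 20.9% of all tested genes.

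Egr1, the zinc finger factor most often used as a readout of ERK signalling, lies on chromosome 18 (34859823 to 34864984) of GRCm38. Its level was 19.1 and 18.7 RPM at 1 h and 3.59 and 3.85 RPM at 2 h, after 4.44 and 4.67 RPM at 0 h. Both libraries of 2 h were far below both of 1 h and slightly below those taken in serum medium. The fall was 2.35 ± 0.10 on the log2 scale, 5.08-fold (limma, adjusted p = 4.9e-07), and -2.33 (adjusted p = 3.8e-05) without nuclei 1 h replicate 1. Its relatives Egr2 and Egr3 fell by 1.76 ± 0.33 (adjusted p = 0.019) and 1.92 ± 0.35 (adjusted p = 0.015). Egr3 stood at 2.61 and 2.65 RPM at 1 h and 0.534 and 0.903 RPM at 2 h, and Egr2 at 1.85 and 1.19 RPM at 1 h and 0.413 and 0.462 RPM at 2 h. The groups did not overlap for either gene.

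The FOS and JUN families, whose products pair as AP-1, followed. Fosb stood at 3.04 and 2.82 RPM at 1 h and 0.789 and 1.23 RPM at 2 h, after 0.651 and 0.624 RPM at 0 h, and fell by 1.57 ± 0.29 (limma, adjusted p = 0.018). Fos stood at 2.2 and 2.65 RPM at 1 h and 1.03 and 1.38 RPM at 2 h and fell by 1.02 ± 0.21 (adjusted p = 0.026). Junb, at 26.8 and 28.3 RPM at 1 h and 11.1 and 14.6 RPM at 2 h after 14.2 and 15.2 RPM at 0 h, fell by 1.11 ± 0.13 (adjusted p = 0.0011). Jun fell by 0.34 ± 0.08 (adjusted p = 0.047), the smallest of the 10 falls, with levels of 18.3 and 17.7 RPM at 1 h and 14 and 14.5 RPM at 2 h. The call of Jun held under only 2 of 14 alternatives. Each of these genes had both libraries of 2 h below both of 1 h. Fosl1, Fosl2 and Jund did not pass, at -0.15, -0.30 and -0.18.

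Among Krüppel-like factors, Klf2, best known from endothelium under shear stress, had 39 and 57 reads at 1 h and 13 and 17 reads at 2 h and fell by 2.18 ± 0.32 (limma, adjusted p = 0.0045). Klf6 stood at 18.2 and 16.3 RPM at 1 h and 10.4 and 11.3 RPM at 2 h and fell by 0.67 ± 0.10 (adjusted p = 0.0054). Klf4 had a log2 fold change of 0.85 and Klf10 one of 0.14, and neither passed. Hes1, a transcriptional repressor that Notch signalling induces and that serum can induce too, stood at 11.1 and 11.2 RPM at 1 h and 5.42 and 6.49 RPM at 2 h, after 5.44 and 5.48 RPM at 0 h. It fell by 0.91 ± 0.11 (adjusted p = 0.0011), and its 2 h libraries were back among those of 0 h. Myc and Srf did not pass, at 0.38 and -0.06, nor did the nuclear receptor genes Nr4a1, Nr4a2 and Nr4a3, at -0.29, -0.10 and -0.57.

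Inhibitors and effectors of the ERK cascade fell alongside. Of 28 tested members, 10 fell, 1 rose and 17 did not pass, against 1.26% and 1.14% of all tested genes that fell and rose. The median was -0.28, and 10 fell on the deposited scale. Without nuclei 1 h replicate 1 there were 9 falls and 0 rises. Egr1 is a member of this list too and is counted in both. Dusp6, which encodes the cytosolic phosphatase that removes phosphate from ERK, lies on chromosome 10 (99263231 to 99267489). Its level was 14.8 and 14 RPM at 1 h and 2.01 and 2.91 RPM at 2 h, after 6.98 and 8.4 RPM at 0 h. The 2 h libraries were below those of both earlier times, and the fall of 2.58 ± 0.18 (5.97-fold; limma, adjusted p = 3.9e-05) was the largest named. Without nuclei 1 h replicate 1 it was -2.54 (adjusted p = 0.0014).

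Dusp4 and Dusp1, nuclear phosphatases of ERK, JNK and p38, fell by 1.67 ± 0.28 (limma, adjusted p = 0.010) and 1.09 ± 0.18 (adjusted p = 0.0092). Dusp4 stood at 2.71 and 2.3 RPM at 1 h and 0.95 and 0.65 RPM at 2 h. Dusp1 stood at 6.16 and 6.18 RPM at 1 h and 2.55 and 3.3 RPM at 2 h, after 6.3 and 4.96 RPM at 0 h, so the 1 h libraries were close to those in serum medium and the 2 h libraries below all of these. Dusp7, another cytosolic ERK phosphatase, was the member that rose, by 0.43 ± 0.10 (adjusted p = 0.045), with levels of 9.01 and 11.1 RPM at 1 h and 13.9 and 12.9 RPM at 2 h. Its groups did not overlap, but the call held under 3 of 14 alternatives, and without nuclei 1 h replicate 1 the change was 0.28 (adjusted p = 0.20). Dusp5, an ERK phosphatase of the nucleus, and Dusp2 did not pass, at -0.66 and -1.69.

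Among inhibitors that act upstream of the kinases, Spry1 and Spry2, Sprouty genes, fell by 0.94 ± 0.14 (limma, adjusted p = 0.0050) and 0.95 ± 0.16 (adjusted p = 0.0087). Spry1 stood at 7.41 and 7.01 RPM at 1 h and 3.65 and 3.85 RPM at 2 h and Spry2 at 4.3 and 4.48 RPM at 1 h and 2.4 and 2.14 RPM at 2 h. Spry4 did not pass (-0.31), nor did Spred1 and Spred2, relatives of the Sprouty genes, at -0.19 and -0.17. Errfi1, which encodes an inhibitor of the EGF receptor, stood at 12.3 and 12.3 RPM at 1 h and 6.67 and 5.3 RPM at 2 h, after 6.55 and 4.81 RPM at 0 h, and fell by 1.04 ± 0.15 (adjusted p = 0.0039). Rgs16, an inhibitor of G protein signalling, stood at 7.06 and 5.98 RPM at 1 h and 2.4 and 2.41 RPM at 2 h, after 10.4 and 10.0 RPM at 0 h. Its fall between 1 and 2 h was 1.43 ± 0.11 (adjusted p = 7.2e-05). The early response genes Ier3 and Phlda1 fell by 1.40 ± 0.14 and 0.91 ± 0.09 (adjusted p = 0.00041 and 0.00048). Etv4, Etv5 and Ccnd1, later targets of the cascade, did not pass, at 0.37, -0.25 and -0.25.

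Targets of SRF and YAP, which couple actin tension and serum signals to transcription, gave 6 falls and 0 rises among 26 tested members. Of all tested genes, 1.26% fell and 1.14% rose, and the median of these targets was -0.27. There were 5 falls and 1 rise on the deposited scale and 5 falls without nuclei 1 h replicate 1. Ccn1, which encodes a matricellular protein, stood at 94.2 and 84.4 RPM at 1 h and 37.8 and 40.8 RPM at 2 h, after 79.5 and 72.8 RPM at 0 h. It fell by 1.18 ± 0.08 (limma, adjusted p = 3.9e-05), with the 2 h libraries below all others. Ccn2, its relative, stood at 71.3 and 64.4 RPM at 1 h and 38.4 and 40.4 RPM at 2 h, after 38 and 35.3 RPM at 0 h, and fell by 0.78 ± 0.07 (adjusted p = 0.00034). Its 2 h levels were close to those at 0 h. Ankrd1, Thbs1 and F3, which encode a sarcomeric and nuclear ankyrin protein, thrombospondin and tissue factor, fell by 0.84 ± 0.09, 0.52 ± 0.07 and 1.05 ± 0.15 (adjusted p = 0.0011, 0.0033 and 0.0038). Cnn2, a calponin gene, fell by 0.30 ± 0.06 (adjusted p = 0.026). The smooth muscle genes Acta2 and Tagln did not pass, at -0.24 and -0.15, and nor did Vcl (-0.27).

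**Figure D2:**
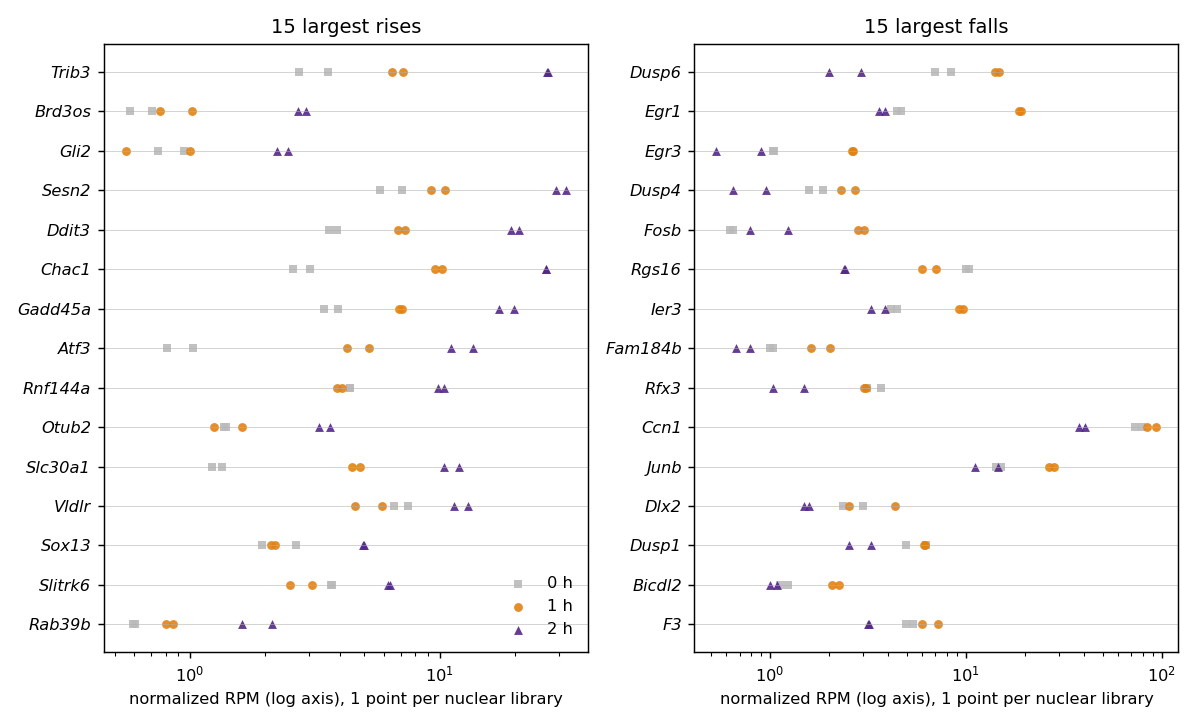
Normalized RPM (log axis) of 15 rises and 15 falls in each of the 6 nuclear libraries, with squares for 0 h, circles for 1 h and triangles for 2 h. They are the largest among called genes with a mean level above the median and no clone name or named copy that kept their sign on the deposited scale. Both triangles lie to the right of both circles in every row on the left and to the left of both in every row on the right, which the choice of these genes required.

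Other named falls belonged to none of these lists. Rfx3, a transcription factor of cilia genes, stood at 3.04 and 3.09 RPM at 1 h and 1.5 and 1.03 RPM at 2 h and fell by 1.30 ± 0.20 (limma, adjusted p = 0.0055). Dlx2, a homeobox factor of forebrain interneuron precursors, stood at 2.54 and 4.36 RPM at 1 h and 1.5 and 1.58 RPM at 2 h, with 1 h libraries far from each other, and fell by 1.11 ± 0.24 (adjusted p = 0.033). Fam184b and Bicdl2 fell by 1.31 ± 0.29 and 1.05 ± 0.25 (adjusted p = 0.041 and 0.047) from 1 h levels of 1.62 to 2.26 RPM. Their calls held under 3 and 5 of 14 alternatives. The BMP, Id and Notch list had a median of -0.28. Of its 22 tested members, 2 fell and 0 rose, against 1.26% and 1.14% of all tested genes. These were Hes1 and Id1, an inhibitor of basic helix-loop-helix factors, which stood at 3.58 and 3.46 RPM at 1 h and 2.03 and 1.69 RPM at 2 h and fell by 0.92 ± 0.19 (adjusted p = 0.024). Id2, Id3 and the ligand gene Bmp4 did not pass, at -0.86, -0.37 and -0.71.

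Genes that insulin and AKT signalling hold down through FoxO factors included both rises and falls. Of 27 tested, with a median of -0.20, 2 rose and 5 fell, against 1.14% and 1.26% of all tested genes. Klhl24, which encodes an adaptor of a ubiquitin ligase, stood at 6.93 and 6.13 RPM at 1 h and 3.22 and 3.62 RPM at 2 h and fell by 0.93 ± 0.11 (limma, adjusted p = 0.0016). Trib1, a Tribbles pseudokinase gene, stood at 10.8 and 12 RPM at 1 h and 5.42 and 6.47 RPM at 2 h and fell by 0.94 ± 0.12 (adjusted p = 0.0017), and Ccng2, a cyclin G gene, had 37 and 38 reads at 1 h and 16 and 19 reads at 2 h and fell by 1.61 ± 0.24 (adjusted p = 0.0058). The insulin pathway genes Irs2 and Igf1r, for a receptor substrate and the IGF1 receptor, fell by 0.69 ± 0.13 and 0.46 ± 0.08 (adjusted p = 0.019 and 0.014). Tsc22d3, which glucocorticoids and FoxO factors induce, stood at 7.22 and 7.04 RPM at 1 h and 12.7 and 12 RPM at 2 h and rose by 0.79 ± 0.11 (adjusted p = 0.0028). The repressor gene Bcl6 rose by 0.69 ± 0.15 (adjusted p = 0.035).

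Mitotic genes fell in a few cases and by less. Of 27 tested members of the mitosis and G2/M list, 5 fell and 0 rose, against 1.26% and 1.14% of all tested genes. The median of the list was -0.23. On the deposited scale 1 fell, and without nuclei 1 h replicate 1 there was 1 fall. Kif20b, a kinesin gene of cytokinesis, stood at 7.56 and 7.99 RPM at 1 h and 4.16 and 4.72 RPM at 2 h, after 12.6 and 13.2 RPM at 0 h, and fell by 0.81 ± 0.09 (limma, adjusted p = 0.0011). Kif20a, Aspm, Plk1 and Kif11, for kinesins, a spindle pole protein and a mitotic kinase, fell by 0.43 ± 0.08, 0.49 ± 0.10, 0.45 ± 0.09 and 0.35 ± 0.07 (adjusted p = 0.013, 0.022, 0.023 and 0.035). Mki67 and Cdk1 did not pass, at -0.34 and -0.25. Of 33 genes of the G1 to S step and DNA replication, 1 rose and 1 fell, with a median of -0.02. The rise was that of Cdt1, a replication licensing factor (0.37 ± 0.08, adjusted p = 0.040), and the fall that of Ccnd3, cyclin D3 (-0.50 ± 0.08, adjusted p = 0.0058). Uhrf1, of maintenance DNA methylation, did not pass at 0.29.

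Most tested members of the ATF4 and CHOP list rose. Of 24 tested members, 15 rose, 0 fell and 9 did not pass, with a median of 0.82 against 0.00 over all genes. On the deposited scale 17 rose, and without nuclei 1 h replicate 1 there were 11 rises. Both libraries of 2 h lay above both of 1 h for 22 of the 24, against 19.5% of all tested genes. Fgf21, a hormone gene, had 6 and 3 reads at 1 h and 82 and 88 reads at 2 h and did not pass (limma, adjusted p = 0.067), and Gdf15, a stress-induced hormone gene, had 3 and 1 reads at 1 h and 4 and 9 reads at 2 h and did not pass either.

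Trib3, a pseudokinase gene that CHOP and ATF4 induce and that restrains both, lies on chromosome 2 (152337422 to 152344032). Its level was 6.47 and 7.15 RPM at 1 h and 27.1 and 27.2 RPM at 2 h, after 2.73 and 3.57 RPM at 0 h. Libraries of the 3 times did not overlap. Its rise between 1 and 2 h was 2.00 ± 0.14 on the log2 scale, 3.99-fold (limma, adjusted p = 3.9e-05), the largest among named genes that passed. Without nuclei 1 h replicate 1 it was 1.92 (adjusted p = 0.0011). Chac1, which encodes an enzyme that degrades glutathione, lies on chromosome 2 (119351229 to 119354381) and stood at 9.6 and 10.2 RPM at 1 h and 26.8 and 26.8 RPM at 2 h, after 2.59 and 3.03 RPM at 0 h. It rose 2.7-fold (1.43 ± 0.10, adjusted p = 3.9e-05), and by 1.39 (adjusted p = 0.0011) without that library.

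Sesn2, for a leucine sensor that restrains mTORC1, lies on chromosome 4 (132492032 to 132510501) and stood at 10.5 and 9.26 RPM at 1 h and 29.4 and 32 RPM at 2 h, after 7.08 and 5.77 RPM at 0 h. Its rise was 3.1-fold (1.63 ± 0.12; limma, adjusted p = 4.9e-05). Ddit3, which encodes CHOP itself, lies on chromosome 10 (127290774 to 127296288) and stood at 6.83 and 7.26 RPM at 1 h and 19.2 and 20.8 RPM at 2 h, after 3.89 and 3.61 RPM at 0 h. It rose 2.84-fold (1.51 ± 0.12, adjusted p = 7.1e-05). Atf3, a stress-induced relative of ATF4, stood at 5.21 and 4.26 RPM at 1 h and 11.1 and 13.6 RPM at 2 h, after 0.809 and 1.03 RPM at 0 h, a rise of 1.38 ± 0.26 (adjusted p = 0.018). In each of these genes the 1 h libraries lay between those of 0 h and those of 2 h.

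Atf4 itself, although regulated mainly in translation, stood at 73.9 and 73.3 RPM at 1 h and 105 and 105 RPM at 2 h, after 44.3 and 43.1 RPM at 0 h, and rose by 0.51 ± 0.06 (limma, adjusted p = 0.0011). Its dimer partner Cebpg stood at 5.62 and 6.32 RPM at 1 h and 9.44 and 9.06 RPM at 2 h after 8.43 and 7.1 RPM at 0 h and rose by 0.63 ± 0.12 (adjusted p = 0.018). Cebpb, another partner, and Atf5 did not pass, at 0.56 and 0.09. Among effectors, Ppp1r15a, which encodes the subunit that steers a phosphatase to eIF2α, stood at 10.3 and 10.8 RPM at 1 h and 17.6 and 19.4 RPM at 2 h and rose by 0.81 ± 0.09 (adjusted p = 0.0011). Ddit4, an inhibitor of mTORC1 that many stresses induce, stood at 27.3 and 24.3 RPM at 1 h and 55.8 and 52.7 RPM at 2 h and rose by 1.07 ± 0.13 (adjusted p = 0.0017). Vegfa, the angiogenic factor, rose by 0.87 ± 0.10, Nupr1, a small stress-induced chromatin protein, by 0.84 ± 0.11, and Stc2, stanniocalcin, by 0.74 ± 0.10 (adjusted p = 0.0011, 0.0026 and 0.0028).

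Vldlr, a lipoprotein and Reelin receptor gene, took another course before the rise. It stood at 4.59 and 5.86 RPM at 1 h and 11.4 and 13 RPM at 2 h, after 6.55 and 7.47 RPM at 0 h, so its 1 h libraries lay below those of 0 h, and it rose between 1 and 2 h by 1.23 ± 0.15 (limma, adjusted p = 0.0016). Cebpg shared that order of levels. Growth arrest genes of the p53 and Gadd45 list, with a median of -0.03, gave 3 rises and 0 falls among 21 tested. Over all tested genes, 1.14% rose and 1.26% fell. Gadd45a, which ATF4 and p53 can each induce, stood at 6.87 and 7.04 RPM at 1 h and 17.3 and 19.8 RPM at 2 h, after 3.44 and 3.9 RPM at 0 h, and rose 2.66-fold (1.41 ± 0.13, adjusted p = 0.00024). Gadd45b and Cdkn1a, the latter for the cyclin kinase inhibitor p21, rose by 0.42 ± 0.07 and 0.42 ± 0.08 (adjusted p = 0.0087 and 0.021). Other p53 targets did not pass, among them Bbc3 (0.32) and Pmaip1 (0.37), and nor did Plk2 (-0.23).

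Promoters of the rising genes were searched for the C/EBP-ATF response element TGATGNAA, in which N is any base and to which ATF4 and CHOP dimers bind in many of these genes. Windows ran from 250 bases before to 50 bases after each RefSeq transcription start on GRCm38.p6, and both strands were read. The 12 genes called higher with a match that are named or listed are shown, so that the matched letters can be read in their promoters. Since they were chosen by the match, the core is alike in all of them apart from N. Each is written 5′ to 3′ on the strand where the match reads forward, with up to 20 bases on either side and every match in capitals. The stretches are Trib3 at chr2:152344019-152344066, plus strand, Chac1 at chr2:119351029-119351076, minus strand, Atf3 at chr1:191183416-191183463, plus strand, Vldlr at chr19:27216800-27216847, minus strand and Nupr1 at chr7:126625553-126625600, plus strand. They are followed by Herpud1 at chr8:94386297-94386344, minus strand, Slc7a11 at chr3:50443652-50443699, minus strand, Pck2 at chr14:55540143-55540190, minus strand, Slc1a4 at chr11:20332690-20332737, plus strand, Tars at chr15:11399646-11399693, plus strand, Slitrk6 at chr14:110755317-110755364, plus strand and Rab39b at chrX:75578182-75578220, plus strand.
Trib3: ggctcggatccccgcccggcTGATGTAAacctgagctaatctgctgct
Chac1: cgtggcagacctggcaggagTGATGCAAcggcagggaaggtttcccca
Atf3: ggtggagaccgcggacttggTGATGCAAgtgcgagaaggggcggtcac
Vldlr: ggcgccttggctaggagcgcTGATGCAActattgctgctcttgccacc
Nupr1: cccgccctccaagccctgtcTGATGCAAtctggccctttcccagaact
Herpud1: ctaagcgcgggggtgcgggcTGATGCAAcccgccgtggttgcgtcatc
Slc7a11: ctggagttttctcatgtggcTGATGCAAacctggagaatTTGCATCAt
Pck2: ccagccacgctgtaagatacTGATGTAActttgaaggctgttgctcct
Slc1a4: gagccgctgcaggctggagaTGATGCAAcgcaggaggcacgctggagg
Tars: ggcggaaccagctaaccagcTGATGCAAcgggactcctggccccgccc
Slitrk6: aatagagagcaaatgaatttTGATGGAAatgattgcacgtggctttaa
Rab39b: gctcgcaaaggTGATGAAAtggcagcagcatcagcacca

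Over all 22 genes called higher with a match, N was C in 11, A in 5, G in 3 and T in 3. The stretch of Slc7a11 held another copy on the other strand.

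Over all genes called higher at sufficient depth, 22 of 173 with a promoter window held the element (12.7%), against 248 of 9676 tested genes of that depth (2.56%). Among genes called lower it was 4 of 188 (2.13%). By list, it was 7 of 20 for the ATF4 and CHOP genes, 4 of 17 for amino acid synthesis, 3 of 16 for amino acid transporters and 5 of 13 for cytosolic tRNA synthetases. It was 0 of 27 for immediate early factors, 0 of 21 for ERK feedback genes and 0 of 20 for SRF and YAP targets. The CArG box of SRF, by contrast, lay in 3 of 27, 1 of 21 and 3 of 20 promoters of those lists, in 6 of 188 genes called lower (3.19%) and in 153 of 9676 genes of that depth (1.58%). The cAMP response element TGACGTCA lay in 5 of 173 genes called higher (2.89%), 5 of 188 called lower (2.66%) and 356 of 9676 of that depth (3.68%). A gene had on average 1.40 windows when called higher, 1.32 when called lower and 1.28 over all of that depth, and no match of the first element overlapped one of the others. The ATF4 list was assembled from known targets, so matches in it are no independent observation. These are matches of letters, not measured binding, and windows of Sesn2 and Ddit3 held none.

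**Figure D3:**
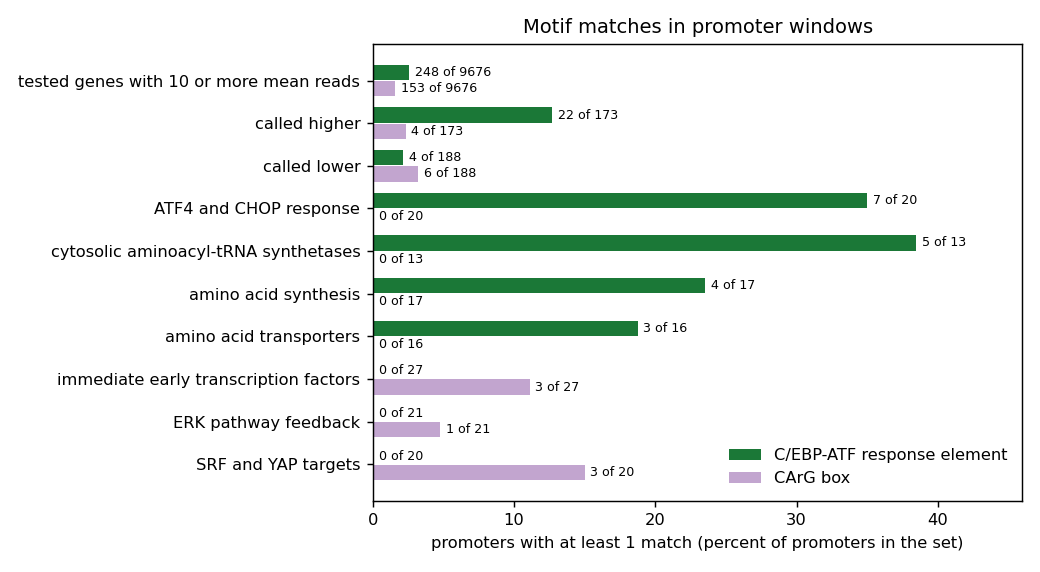
Percent of genes in each set with at least 1 match in a promoter window, for the C/EBP-ATF response element and the CArG box. The element was found in 12.7% of genes called higher and 2.56% of all tested genes of sufficient depth.

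Amino acid supply genes rose in part. Of 21 tested enzymes of amino acid and one-carbon synthesis, 6 rose and 0 fell, with a median of 0.28; 10 rose on the deposited scale and 5 without nuclei 1 h replicate 1. Gpt2, the mitochondrial alanine transaminase, stood at 10.4 and 9.79 RPM at 1 h and 21.7 and 20.2 RPM at 2 h, after 11.3 and 10.3 RPM at 0 h. The 2 h libraries were above all earlier ones, and the rise was 1.06 ± 0.10 (limma, adjusted p = 0.00034). The mitochondrial folate enzymes Mthfd2 and Aldh1l2 stood at 18.1 and 18.2 RPM at 1 h and 27.9 and 27.3 RPM at 2 h and at 43.2 and 38.4 RPM at 1 h and 62.5 and 61.4 RPM at 2 h. They rose by 0.60 ± 0.07 and 0.61 ± 0.07 (adjusted p = 0.0011 and 0.0011), and the libraries of both times were well apart. Pck2, mitochondrial phosphoenolpyruvate carboxykinase, Aldh18a1, of proline synthesis, and Cth, which makes cysteine, rose by 0.76 ± 0.12, 0.49 ± 0.09 and 0.61 ± 0.13 (adjusted p = 0.0058, 0.012 and 0.035). Asns, asparagine synthetase, stood at 40.9 and 35.8 RPM at 1 h and 47.1 and 45.7 RPM at 2 h and did not pass at 0.28, nor did Psph (0.40) or Pycr1 (0.63); on the deposited scale all 3 passed.

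Carriers of amino acids gave 8 rises and 0 falls among 23 tested, with a median of 0.03, and 15 members did not pass. Slc3a2, the heavy chain that holds light chains at the membrane, stood at 60.3 and 53.1 RPM at 1 h and 92.7 and 88.6 RPM at 2 h, after 40.9 and 38.7 RPM at 0 h, and rose by 0.68 ± 0.08 (limma, adjusted p = 0.0011). Its light chains Slc7a5, for large neutral amino acids, and Slc7a11, for cystine, rose by 0.37 ± 0.08 and 0.80 ± 0.14 (adjusted p = 0.026 and 0.012). The neutral amino acid carriers Slc1a4 and Slc1a5 rose by 0.75 ± 0.09 and 0.40 ± 0.07 (adjusted p = 0.0017 and 0.012). Slc43a2, Slc6a9 and Slc7a1, for large neutral amino acids, glycine and cationic amino acids, rose by 0.76 ± 0.11, 0.77 ± 0.11 and 0.51 ± 0.09 (adjusted p = 0.0037, 0.0045 and 0.0092). The system A carriers Slc38a1 and Slc38a2 did not pass, at 0.01 and 0.20. Without nuclei 1 h replicate 1, 6 carriers rose.

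Cytosolic aminoacyl-tRNA synthetases, which load tRNAs with amino acids, rose in a few cases and by small amounts. Of 20 tested, 5 rose and 0 fell, with a median of 0.16. Both libraries of 2 h lay above both of 1 h for 13 of the 20, against 19.5% of all tested genes. Cars, Nars, Lars, Tars and Sars rose by 0.35, 0.31, 0.33, 0.32 and 0.27 on the log2 scale, with adjusted p of 0.023 to 0.048 (limma), and Cars and Nars are also counted in the ATF4 and CHOP list. Nars stood at 59.5 and 55.6 RPM at 1 h and 69.8 and 72.4 RPM at 2 h and Lars at 21.4 and 23 RPM at 1 h and 28 and 27.9 RPM at 2 h. On the deposited scale 9 rose, and when any 1 of the 4 nuclear libraries was left out 0 of the 20 passed. Of 17 tested mitochondrial synthetases 0 passed in either direction, with a median of 0.03. Pars2, Tars2, Sars2 and Rars2 had the smallest p-values there, at 0.54, 0.20, 0.35 and 0.20.

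Of 24 tested genes of the ER folding response, 1 rose and 0 fell, with a median of -0.10. Both libraries of 2 h lay below both of 1 h for 11 of them, against 20.9% of all tested genes. With median centring, 9 of the 24 fell, but falls over all tested genes then numbered 1171, against 266 in the main fit. The 1 rise was that of Herpud1, of ER-associated degradation. Its level was 16.3 and 15.5 RPM at 1 h and 34.1 and 31.1 RPM at 2 h, after 13.5 and 12 RPM at 0 h. Herpud1 rose 2.05-fold (1.03 ± 0.09, limma adjusted p = 0.00013). The chaperone genes Hsp90b1, Calr and Pdia3 did not pass, at -0.17, -0.11 and -0.19, and nor did Dnajb9 (0.73) or Manf (-0.30), and Sdf2l1 was at -0.50. Of 20 tested NRF2 targets, 2 rose and 0 fell, with a median of 0.12. These were Hmox1, heme oxygenase, at 6.07 and 5.95 RPM at 1 h and 10.7 and 12.1 RPM at 2 h (0.92 ± 0.11, adjusted p = 0.0017), and Slc7a11, counted above. Gclc, Srxn1 and Txnrd1 did not pass, at -0.40, 0.23 and -0.14. Of 20 tested heat shock genes, 1 fell and 0 rose, with a median of -0.05: Hsph1, a chaperone of the HSP110 family, fell by 0.39 ± 0.08 (adjusted p = 0.024). Bag3, Hsf1, the master factor of that response, and Chordc1 did not pass, at -0.36, 0.29 and -0.33.

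Among 12 tested genes of zinc handling, 2 rose and 1 fell, against 1.14% and 1.26% of all tested genes. Mt1, a metallothionein that binds zinc, stood at 16 and 16.7 RPM at 1 h and 32.3 and 29.3 RPM at 2 h, after 9.02 and 8.05 RPM at 0 h, and rose by 0.91 ± 0.09 (limma, adjusted p = 0.00039). Slc30a1, which exports zinc at the plasma membrane, stood at 4.82 and 4.45 RPM at 1 h and 10.4 and 11.9 RPM at 2 h, after 1.23 and 1.34 RPM at 0 h, and rose by 1.27 ± 0.16 (adjusted p = 0.0017). Slc39a10, an importer, stood at 17.6 and 14.3 RPM at 1 h and 10.8 and 11.4 RPM at 2 h and fell by 0.52 ± 0.11 (adjusted p = 0.036). The other 9 of 12 tested members, Slc30a5 at -0.27 among them, did not pass, and the median was -0.10. Without nuclei 1 h replicate 1 the list had 2 rises and 0 falls.

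Sterol and fatty acid synthesis rose in part. Of 35 tested genes of the SREBP pathway, 7 rose and 0 fell, with a median of 0.26; 12 rose on the deposited scale and 3 without nuclei 1 h replicate 1. Both libraries of 2 h were above both of 1 h for 21 of the 35, against 19.5% of all tested genes. Hmgcs1, the cytosolic HMG-CoA synthase, stood at 31.6 and 30.9 RPM at 1 h and 47.7 and 45.1 RPM at 2 h, after 35.7 and 34.5 RPM at 0 h, and rose by 0.57 ± 0.07 (limma, adjusted p = 0.0016). Sqle, Lss, Cyp51 and Hsd17b7, of later steps, rose by 0.27, 0.44, 0.43 and 0.55 (adjusted p = 0.044, 0.016, 0.015 and 0.014), and Scd2, a fatty acid desaturase gene, by 0.30 (adjusted p = 0.018). Insig1, Srebf1, Srebf2 and Fasn did not pass, at 0.27, 0.20, 0.10 and -0.10.

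**Figure D4:**
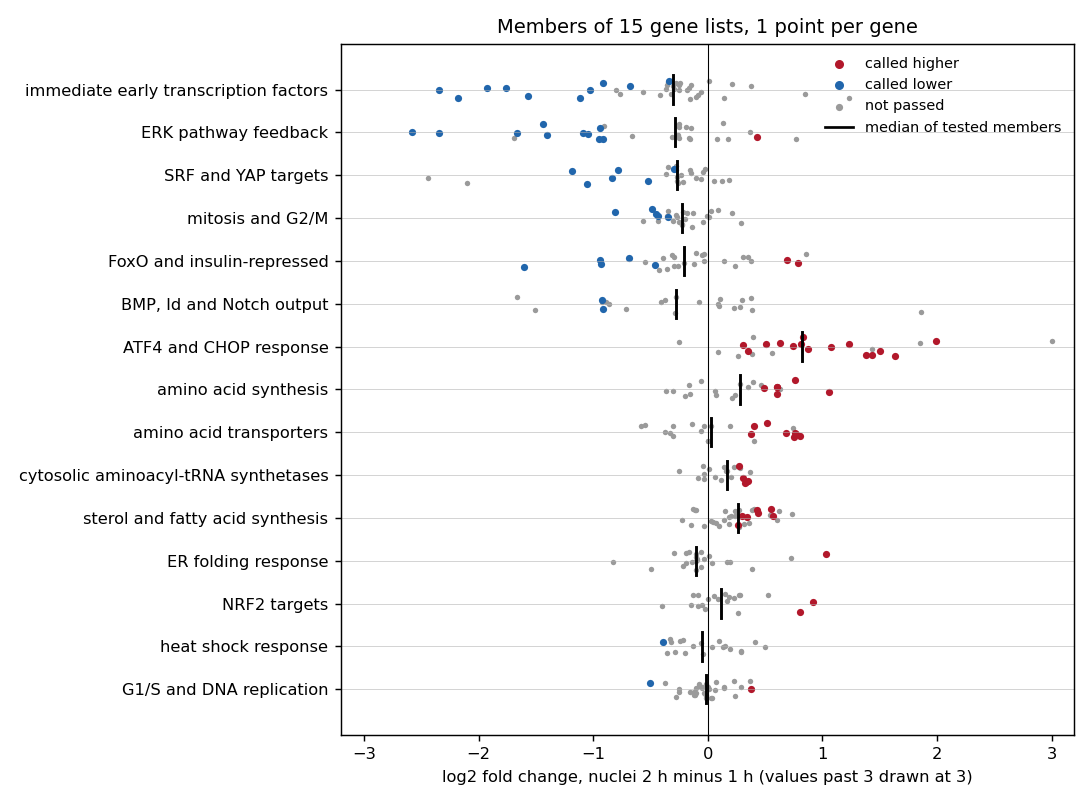
Log2 fold change of nuclei at 2 h over 1 h for the tested members of 15 gene lists, 1 point per gene, red for called higher, blue for called lower and grey for not passed, with a bar at each list's median and values past 3 drawn at 3. The ATF4 and CHOP list has its median at 0.82, and the immediate early, ERK, SRF and YAP lists have theirs between -0.30 and -0.27.

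With each of the 4 nuclear libraries left out in turn, rises numbered 11 to 12 for the ATF4 and CHOP list, 3 to 5 for amino acid synthesis, 3 to 6 for amino acid transporters and 1 to 3 for sterol and fatty acid synthesis. Falls numbered 4 to 8 for immediate early factors, 8 to 10 for ERK feedback, 5 for SRF and YAP targets and 1 to 5 for mitosis and G2/M. The p53 and Gadd45 list and the NRF2 targets had 1 to 2 rises each, the clock genes 0 to 1 rise and the heat shock genes 0 to 1 fall. The ER folding list had 1 rise and the zinc list 2 rises with any 1 library left out, and the G1 to S list had 1 fall.

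The alpha-arrestins, which steer receptors and glucose carriers to degradation, included a fall and a rise. Arrdc3 stood at 22.1 and 20.4 RPM at 1 h and 10.2 and 11.6 RPM at 2 h, after 2.2 and 1.85 RPM at 0 h, and fell by 0.97 ± 0.13 (limma, adjusted p = 0.0027), to levels that were still well above those of 0 h. Arrdc4 stood at 2.97 and 2.3 RPM at 1 h and 5.51 and 5.14 RPM at 2 h, after 0.965 and 1.05 RPM at 0 h, and rose by 1.03 ± 0.18 (adjusted p = 0.013). Txnip, the glucose-responsive member, was at 50.8 and 47.2 RPM at 1 h and 45.9 and 42.1 RPM at 2 h, after 11 and 10.7 RPM at 0 h, and did not pass at -0.16. In the same list Slc16a6, of the monocarboxylate carrier family, rose by 0.84 ± 0.16 and Slc2a1, the glucose carrier GLUT1, fell by 0.44 ± 0.10 (adjusted p = 0.021 and 0.049). The calls of Slc16a6 and Slc2a1 held under 7 and 3 of 14 alternatives. This list had 2 rises and 2 falls among 18 tested, with a median of 0.14. Clock genes, with a median of 0.09, gave 2 rises and 0 falls among 19 tested, against 1.14% and 1.26% of all tested genes. These were the repressor genes Cry2 and Ciart, which rose by 0.76 ± 0.16 and 0.84 ± 0.18 (adjusted p = 0.027 and 0.035), while Per2, Nr1d1 and Nfil3 did not pass, at 0.27, -0.40 and 0.51.

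Named rises outside the lists were mostly of low level. Gli2, an effector of Hedgehog signalling, stood at 1 and 0.554 RPM at 1 h and 2.23 and 2.46 RPM at 2 h, after 0.744 and 0.943 RPM at 0 h, and rose by 1.65 ± 0.30 (limma, adjusted p = 0.015). Sox13, an SRY-related factor, stood at 2.2 and 2.11 RPM at 1 h and 4.99 and 4.91 RPM at 2 h, after 1.94 and 2.66 RPM at 0 h, and rose by 1.20 ± 0.17 (adjusted p = 0.0035). Slitrk6, which encodes a neuronal membrane protein of neurite growth and synapse formation, stood at 3.08 and 2.51 RPM at 1 h and 6.33 and 6.24 RPM at 2 h, after 3.69 and 3.7 RPM at 0 h, and rose by 1.18 ± 0.13 (adjusted p = 0.0011). For these 3 genes the 2 h libraries were above all of 0 and 1 h. Rnf144a, a ubiquitin ligase gene, showed that order too, at 3.89 and 4.07 RPM at 1 h and 10.4 and 9.82 RPM at 2 h after 4.36 and 4.38 RPM at 0 h, and rose by 1.35 ± 0.12 (adjusted p = 0.00024). Otub2, a deubiquitinase gene, and Rab39b, a neuronal RAB gene, rose by 1.28 ± 0.20 and 1.17 ± 0.23 (adjusted p = 0.0060 and 0.025). Brd3os, annotated opposite Brd3, rose by 1.68 ± 0.30 (adjusted p = 0.015). Strandedness is not stated in the labels, so its reads cannot be told from those of overlapping genes.

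Few non-coding RNAs changed under the naming rule. Snhg5 and Gas5, which host small nucleolar RNAs in their introns, stood at 8.34 and 7.91 RPM at 1 h and 14.3 and 12.2 RPM at 2 h and at 24.2 and 25.2 RPM at 1 h and 33.2 and 35.1 RPM at 2 h. They rose by 0.70 ± 0.12 and 0.47 ± 0.07 (limma, adjusted p = 0.0095 and 0.0064). They were the 2 rises among 19 tested snoRNA hosts, with 0 falls, against 1.14% and 1.26% of all tested genes. The median of these hosts was -0.01, while Snhg1 and Snhg12 did not pass, at 0.31 and 0.55. Mir100hg, host of a microRNA cluster, stood at 8.51 and 7.88 RPM at 1 h and 5.64 and 5.14 RPM at 2 h, after 14.9 and 15.6 RPM at 0 h, and fell by 0.61 ± 0.11 (adjusted p = 0.015). It was the only fall among 10 tested nuclear-retained RNAs, with 0 rises and a median of -0.03. Lncpint, Airn and Mirg did not pass, at -0.54, -0.29 and 0.62. Malat1 and Neat1, which stay in nuclear speckles and paraspeckles, stood at 545 and 545 RPM at 1 h and 627 and 545 RPM at 2 h and at 54.8 and 49.3 RPM at 1 h and 49.4 and 49.5 RPM at 2 h and did not pass, at 0.10 and -0.07; Malat1 passed on the deposited scale (0.37). Of 25 splicing kinases and SR proteins, 2 rose and 0 fell, with a median of 0.12: Srsf3 and Clk2, by 0.41 ± 0.07 and 0.44 ± 0.09 (adjusted p = 0.015 and 0.035). Rsrp1 and Srsf9, 2 further members of that list, did not pass, at 0.54 and -0.34. Of 27 mRNAs of secreted and ER proteins, 0 passed in either direction, with a median of -0.07. Fat1, Hspg2, Lamc1 and Igf2r, with the smallest p-values there, stood at -0.28, -0.15, -0.17 and -0.14.

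Gene length was described without a test. Among protein-coding genes of sufficient depth, the median genomic span was 47.0 kb for the 239 that fell, 22.6 kb for the 200 that rose and 25 kb for all 11650. Of genes over 100 kb, 3.28% fell and 1.55% rose, while under 10 kb 1.77% fell and 1.77% rose. The median log2 fold change was -0.07 over 100 kb, -0.01 from 10 to 100 kb and 0.04 under 10 kb. Protein-coding genes made up 95.2% of rises and 96.4% of falls, and 87.7% of tested genes of that depth.

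The mitochondrial preparations of the same times gave a second set of libraries, and the labels do not say whether they came from the same cultures. None of them is among the libraries compared in nuclei, but their spread entered the nuclear calls. The same fit covered all libraries and gave each gene the same standard error in both preparations. Genes with close mitochondrial replicates therefore passed more easily in nuclei. The choice of called genes thus favours calls and groups without overlap in mitochondrial libraries too. The genes compared here are those of the same table, and an RNA measured there need not sit inside mitochondria. In the mitochondrial libraries, 340 genes rose between 1 and 2 h (1.61%) and 445 fell (2.11%). Of the 210 nuclear rises of sufficient depth, 203 had the same sign there (96.7%), 124 also rose (59.0%) and 1 fell. Both mitochondrial libraries of 2 h lay above both of 1 h for 196 of them (93.3%), against 18.8% of all tested genes. Of the 248 nuclear falls, 240 had the same sign (96.8%), 130 also fell (52.4%) and 0 rose. For 227 of them both libraries of 2 h lay below both of 1 h (91.5%), against 21.7% of all tested genes. The shares of 18.8% and 21.7% cover all 21079 tested genes, those of lower depth included, and were not chosen by the shared spread. How far that choice raised the shares of called genes was not tested. For the same-sign shares of 96.7% and 96.8%, no share over all tested genes is given. Pearson's r between the preparations was 0.90 over these 458 genes and 0.53 over all 13280 genes of that depth, across genes that are not independent replicates. Mitochondria 1 h replicate 1 has the same shortage of reads on genes with processed copies as nuclei 1 h replicate 1.

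Levels in the mitochondrial libraries followed closely for the lead genes. Trib3 stood at 5.64 and 4.66 RPM at 1 h and 21.3 and 22.6 RPM at 2 h there, a change of 2.10 ± 0.14 (limma, adjusted p = 2.0e-05), and Chac1 at 8.66 and 9.08 RPM at 1 h and 23.9 and 24 RPM at 2 h, a change of 1.43 ± 0.10 (adjusted p = 2.0e-05). Egr1 stood at 24.3 and 23.4 RPM at 1 h and 3.3 and 3.73 RPM at 2 h, a change of -2.76 ± 0.10 (adjusted p = 7.4e-08), and Dusp6 at 19.8 and 17 RPM at 1 h and 2.55 and 2.97 RPM at 2 h, a change of -2.74 ± 0.18 (adjusted p = 2.0e-05). By list, 14 of 24 ATF4 and CHOP genes rose there and 0 fell, while 13 of 37 immediate early factors fell and 1 rose. Sterol and fatty acid synthesis had 15 rises there, against 7 in nuclei, and cytosolic tRNA synthetases had 1, against 5. Splicing kinases and SR proteins had 4 falls there and 0 rises, and mRNAs of secreted and ER proteins 6 rises. The differences between these counts were not tested.

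**Figure D5:**
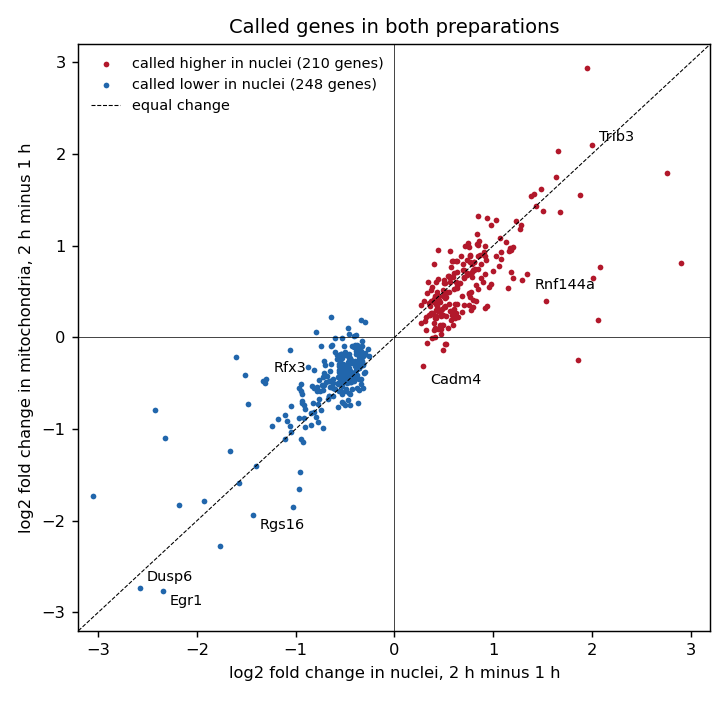
Log2 fold change of 2 h over 1 h in mitochondrial libraries against that in nuclear libraries, 1 point per gene called in nuclei with at least 10 mean reads, red for the 210 called higher and blue for the 248 called lower; the dashed line marks equal change. Most points share their sign in both preparations, with Cadm4 among the exceptions.

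The difference between the preparations' changes was tested gene by gene, and 0 of 21079 genes passed (0%) by limma, with 1594 at an unadjusted p under 0.05 and 2 called by limma voom on recovered reads. The smallest p-values belonged to Cadm4, Neat1, Malat1, B3galt5 and Ccnd1 for changes that were more positive in nuclei and to Hspg2, Lrp1, Adgrg6, Sulf1 and Tapbp for changes that were more negative there. None of these differences passed. Neat1 was at 29.1 and 27 RPM at 1 h and 16.5 and 16.7 RPM at 2 h in mitochondrial libraries, a change of -0.76 ± 0.08 there against -0.07 ± 0.08 in nuclei, and the difference was 0.69 ± 0.12 (limma, adjusted p = 0.25). Malat1 changed by -0.37 ± 0.07 there and by 0.10 ± 0.07 in nuclei, a difference of 0.47 ± 0.10 (adjusted p = 0.31). Ccnd1, cyclin D1, was at 117 and 106 RPM at 1 h and 69.8 and 67.2 RPM at 2 h there, a change of -0.70 ± 0.07, against -0.25 ± 0.07 in nuclei, and Tapbp, a chaperone of antigen loading, changed by 0.41 ± 0.07 there and -0.12 ± 0.07 in nuclei. Hspg2 and Lrp1, which encode a basement membrane proteoglycan and a large endocytic receptor, changed by 0.23 ± 0.05 and 0.25 ± 0.04 there and by -0.15 ± 0.05 and -0.12 ± 0.04 in nuclei. B3galt5 and Adgrg6 changed by -0.78 ± 0.19 and 0.21 ± 0.07 there and by 0.40 ± 0.19 and -0.29 ± 0.07 in nuclei.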

How the data were processed

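RNA was sequenced from nuclear and mitochondrial preparations of C17.2 cells after ribosomal RNA depletion, per the labels' protocols. The authors deposited a SeqMonk gene table of log2 values, the log2 of RPM, reads per 1000000 reads of a library total. HISAT2, StringTie, edgeR, GRCm38 and mm10 are named, without versions, per the submitters' processing notes, and strandedness is not given in the sources used here. Whole reads were recovered from the values (tolerance 0.05 read) for 99.9972% to 100% of values per library, and a gene without a read stands at 0.9 read.

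Genes above that floor in at least 2 of 12 libraries were tested. Values were quantile-normalized, and limma 3.58.1 in R 4.3.3 fitted all 12 libraries as 6 groups of 2, with Benjamini-Hochberg adjustment at 0.05 over all 21079 genes. A shared spread estimate was needed because each group has only 2 libraries. Quantile normalization sets each library to one distribution, which removes a shift shared by all genes and gives genes of equal rank equal levels. Depth was 4566444 to 5913678 reads inside genes in the 4 nuclear libraries.

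Named genes were the 15 largest called rises and falls that kept their sign on the deposited scale, had groups that did not overlap and a mean level above the median, and had no clone name or named copy. To these came list members in order of p, up to 5 non-coding RNAs each way, and the 5 smallest interaction p-values each way. Members and lists were chosen with earlier results of these data known. The main fit paired no libraries. Deviations from the group mean in replicate 1 of nuclei at 1 h and at 2 h had a correlation of 0.03 over 13348 genes. The 1 h libraries differed on genes with processed copies and those of 2 h did not, so this value cannot exclude a pairing by replicate number. Pairing between the preparations was not examined. The alternatives were other scalings, filters, sets of libraries, a term for the copy split, a replicate block, limma voom on recovered read counts, and each nuclear library left out. A transcript table of FPKM, which has 1 nuclear library of 1 h, was not used. Promoters are RefSeq sequences of GRCm38.p6, and those of mouse chromosome 18 were not used here. Single values of a few list members are not reported here.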

Additional observations from a re-analysis of the deposited data

Results flagged for a closer look

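For 14 of the 214 genes named here, both libraries of 2 h lay on one side of both of 1 h in nuclei and on the other side in mitochondrial preparations, as they did for 859 of all 21079 tested genes. Cadm4, B3galt5, Hspg2, Lrp1, Adgrg6, Sulf1 and Tapbp, all among the 14, were named for their small p-values of this very difference. The 14 of 214 can therefore not be set against the share over all genes. The test of the difference itself passed for none of the 14 (limma). Of these, 3 were called in nuclei. Cadm4, which encodes a cell adhesion protein, had 591 and 600 reads at 1 h and 885 and 919 reads at 2 h in nuclei and changed by 0.29 ± 0.06 there (limma, adjusted p = 0.041) and by -0.31 ± 0.06 in mitochondrial libraries (adjusted p = 0.022). The difference was 0.60 ± 0.09 (adjusted p = 0.25). Sulf1, for a sulfatase of heparan sulfate, changed by -0.30 ± 0.06 in nuclei and 0.16 ± 0.06 in mitochondrial libraries, a difference of -0.46 ± 0.09 (adjusted p = 0.30). Lars, the cytosolic leucyl-tRNA synthetase, changed by 0.33 ± 0.07 in nuclei and -0.06 ± 0.07 in mitochondrial libraries, a difference of 0.40 ± 0.11 (adjusted p = 0.42). The other 11 did not pass in nuclei. The difference, nuclei minus mitochondria, was more positive in nuclei for B3galt5 at 1.18 ± 0.26, Hsf1 at 0.41 ± 0.11 and Sox2 at 0.81 ± 0.26. It was more negative there for Hspg2 at -0.38 ± 0.06, Lrp1 at -0.37 ± 0.06, Adgrg6 at -0.50 ± 0.10 and Tapbp at -0.53 ± 0.11. The same held for Hsp90b1 at -0.31 ± 0.06, Calr at -0.21 ± 0.07, Lamc1 at -0.20 ± 0.09 and Igf2r at -0.24 ± 0.08. Adjusted p-values of these differences ran from 0.25 to 0.64 (limma).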

How the results depend on the processing

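Counts depended on how the spread was estimated and on the scale. None of the 111 called genes that are named or listed changed direction under any of the 14 alternatives, but this was largely fixed in advance. Fits of the 4 or 6 nuclear libraries and the replicate block keep the same difference of group means. Leaving out 1 library cannot reverse a gene whose groups do not overlap. The 15 largest rises and falls were also chosen for their sign on the deposited scale. The counts of 241 rises and 266 falls became 0 and 0 with the 4 nuclear libraries alone, 15 and 7 with the 6 nuclear libraries, and 0 and 0 with the 8 libraries on 1 side of the copy split. They were 445 and 91 on the deposited scale and 434 and 529 with a filter of over 10 reads. Falls were 1171 with median centring and 141 without a filter. With 1 nuclear library left out, rises were 94 to 145 and falls 77 to 213. The 15 ATF4 and CHOP rises became 0, 6 and 0 with 4, 6 and 8 libraries. The 10 immediate early falls became 0, 1 and 0 there, 6 without a filter, and 4 to 8 with 1 library left out. Genes whose change differed between preparations, 0 in either direction, became 8 and 4 with the copy split term, 6 and 33 with median centring, 71 and 45 without a filter, and 3 and 0 with over 10 reads; limma voom on recovered reads called 0 and 2. The replicate block gave 211 rises, 261 falls, 15 ATF4 and CHOP rises and 10 immediate early falls. The cause of these shifts was not tested. Fits of fewer libraries have fewer degrees of freedom, and the part this played was not tested either. Of the 111 genes, the call was lost for 33 to 58 with 1 library left out, 16 on the deposited scale, 46 without a filter and 5 under the replicate block.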

Other observations

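Some called genes outside the lists were chosen after their values were seen, for their known roles. Ern1, which encodes the ER stress sensor IRE1α, stood at 6.31 and 5.6 RPM at 1 h and 10.9 and 10.5 RPM at 2 h and changed by 0.85 ± 0.11 between 1 and 2 h in nuclei (limma, adjusted p = 0.0028). Adar, the RNA-editing adenosine deaminase, changed by 0.82 ± 0.09 (adjusted p = 0.00069), and Cirbp, a cold-inducible RNA-binding protein gene, by 0.79 ± 0.12 (adjusted p = 0.0073). Vdr, the vitamin D receptor, changed by 0.92 ± 0.15, and Nfya, a subunit of the CCAAT-binding factor, by 0.92 ± 0.11 (adjusted p = 0.010 and 0.0011). All 5 rose in mitochondrial libraries too, by 1.01, 0.58, 0.66, 0.89 and 0.84. Among falls, Rhob, a serum-responsive small GTPase gene, stood at 29.5 and 31.4 RPM at 1 h and 15.9 and 17.9 RPM at 2 h and changed by -0.85 ± 0.09 (adjusted p = 0.00054). Socs3, an inhibitor of cytokine signalling, changed by -0.82 ± 0.12, and Hexim1, an inhibitor of the elongation factor P-TEFb, by -0.73 ± 0.12 (adjusted p = 0.0037 and 0.0073). Tfrc, the transferrin receptor, changed by -0.71 ± 0.08 and Adamts1, a matrix protease gene, by -0.93 ± 0.11 (adjusted p = 0.00095 and 0.0011). These 5 genes fell in mitochondrial libraries as well, with changes of -0.95, -0.71, -0.98, -0.39 and -0.72.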
